A study of Mus musculus with 8 samples.

Results

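Guanylate-binding proteins (Gbp) and immunity-related GTPases (Irg) are GTP-hydrolysing enzymes that mouse cells make in response to interferon-gamma. Here 10 of their genes are described, Gbp2, Gbp3, Gbp5, Gbp6, Gbp7, Gbp8 and Gbp9 of the Gbp family and Igtp, Irgm1 and Iigp1 of the Irg family, out of 40659 genes in the count table. The genes were chosen by name, from measured results of these same libraries, so their levels and their difference between the groups are given as a description. All 10 passed the filter on low counts, which 17252 genes passed in all.

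PolyA-RNA sequencing was performed on the hippocampus of 8 male wild-type C57BL/6JRj mice, 4 injected with the recombinant adeno-associated virus (rAAV) hpCTL and 4 with hp708. The hp708 virus carries a hairpin for overexpression of miR-708-5p and the hpCTL virus a control hairpin, in both cases in a transcript with EGFP under the human synapsin promoter, which is active in neurons. Virus was delivered to the dorsal and ventral hippocampus at 7 to 8 postnatal weeks, tissue was taken 4 weeks after surgery, and the labels give an age of 12 to 13 weeks. Every mouse was injected, so no value stands for an untouched hippocampus. The libraries held between 22606824 and 28462428 counts. Mir708 itself had no counts in any library, so overexpression was not visible in these data. The library labelled hp708 replicate 1 comes from an animal that the study's source data for another assay list as hpCTL. It was kept in hp708 as labelled, and the differences of the 10 genes and of the gene lists are also given without it.

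Interferon-gamma binds a receptor made of Ifngr1 and Ifngr2, the kinases Jak1 and Jak2 relay the signal, and target genes often carry gamma-activated sites (GAS) in their DNA. The signal also raises Irf1, a factor that binds interferon-stimulated response elements (ISRE), which type I interferons use as well. The Gbp proteins then attach to the vacuoles and membranes of intracellular pathogens, and several of them help to activate inflammasomes. Among the Irg proteins Irgm1 and Igtp sit on the membranes of the cell itself and restrain effectors such as Iigp1, which are loaded onto pathogen vacuoles. In brain, microglia and other non-neuronal cells are known to express these genes under interferon-gamma.

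The 7 Gbp genes lie in a pair of clusters on GRCm39. Gbp5, Gbp7, Gbp3 and Gbp2 lie in this order on the plus strand of chromosome 3 between 142199739 and 142343779. Gbp8, Gbp9 and Gbp6 are on the minus strand of chromosome 5 between 105162016 and 105443751. Irgm1 (48752795 to 48763164, minus strand) and Igtp (58089840 to 58098417, plus strand) are apart from each other on chromosome 11, and Iigp1 is on another chromosome.

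The stretches before the start are shown because they hold letters known from genes that respond to interferons. The window from 250 bases before to 50 bases after the annotated start was searched on both strands for TTCNNNGAA, the GAS letters, and GAAANNGAAA, the ISRE letters. Positions are counted from 0 at the first transcribed base. Of 21770 protein-coding genes, 8.81% held the GAS letters, 3.84% the ISRE letters and 0.565% both. Of the 10 genes 3 held GAS letters (Gbp5, Gbp7 and Iigp1), 5 held ISRE letters (these 3, Gbp2 and Irgm1) and 5 held neither (Gbp3, Gbp6, Gbp8, Gbp9 and Igtp). The upstream matches of Gbp5 (chr3:142202444-142202464, plus strand), Gbp7 (chr3:142235985-142236024, plus strand) and Irgm1 (chr11:48762256-48762283, minus strand) are printed in capitals. Those of Irgm2 (chr11:58090331-58090363, plus strand) and Tgtp2 (chr11:48955094-48955126, minus strand), Irg genes outside the 10, are set beside them because they carry GAS and ISRE letters next to each other.
Gbp5: ggcaacTTCTGGGAAattagt
Gbp7: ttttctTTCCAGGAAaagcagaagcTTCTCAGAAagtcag
Irgm1: tttcaaGAAATAGAAACCGAAActgatt
Irgm2: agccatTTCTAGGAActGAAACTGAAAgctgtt
Tgtp2: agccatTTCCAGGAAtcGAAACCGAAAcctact

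In Irgm1 the capitals are 2 overlapping ISRE matches, from -30 to -21 and from -24 to -15. Gbp7 had GAS matches from -53 to -45 and from -34 to -26, and ISRE letters from 0 to 9. In Gbp5 a GAS match lay from -84 to -76 and ISRE letters from -4 to 5, across the start. Iigp1 had a GAS match from -65 to -57 and an ISRE match from -23 to -14. The single match of Gbp2, an ISRE from 16 to 25, lay after its start. Of 16 distinct windows of other Gbp, Irg and Gvin genes 8 held both kinds of letters. A match of letters is not a measured binding site, and no match in this window says nothing about regulation of Gbp3, Gbp6, Gbp8, Gbp9 or Igtp.

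**Figure D1:**
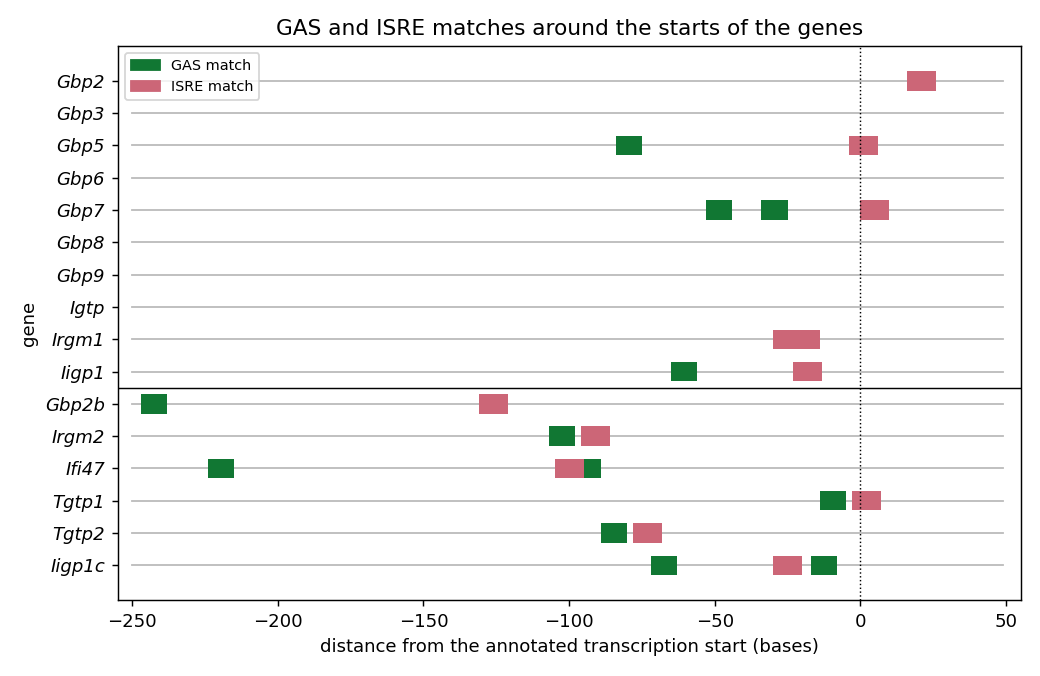
GAS and ISRE letters around the start of the 10 genes (above the line) and of 6 other Gbp and Irg genes (below it). The x axis is the distance in bases from the annotated start, shown by the dotted line, and 5 of the 10 genes hold no match.

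The microRNA that was overexpressed and its seed matches in the 3' untranslated regions (3'UTRs) are shown next, because hp708 carries this microRNA. A match of the seed is a description of sequence and not a measured target. The mature sequence is from RefSeq, with the seed (bases 2 to 8) in capitals.
miR-708-5p: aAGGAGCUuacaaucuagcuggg

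Matches to the seed (8mer, 7mer-m8 or 7mer-A1) were searched in the longest annotated 3'UTR of each gene. Of 14808 tested genes with a 3'UTR, 3927 (26.5%) held at least 1 match. Of the 10 genes 3 did, Gbp6, Gbp8 and Gbp9, and the other 7 did not. The sites are printed as DNA on the transcript's strand with the match in capitals. They lie on the minus strand of GRCm39, that of Gbp6 at chr5:105419410-105419436, that of Gbp8 at chr5:105162637-105162664, and those of Gbp9 at chr5:105226292-105226318 and chr5:105224548-105224574.
Gbp6 (7mer-m8): tacccaccccAGCTCCTctaagacatc
Gbp8 (8mer): gacatagaacAGCTCCTAcatgtctgca
Gbp9 (7mer-m8): tacccgccgcAGCTCCTctaagacatc
Gbp9 (7mer-A1): catgcaactgGCTCCTAagaatagctg

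Levels are given as counts per 1000000 counts of the library (CPM), on TMM-normalized library sizes, in the order of replicates 1 to 4. Summed over the 10 genes, the level was 190.8, 526.9, 556.3 and 688.9 CPM in hpCTL and 173.4, 559.3, 248.5 and 665.8 CPM in hp708. Low libraries, hpCTL replicate 1 and hp708 replicates 1 and 3, occurred in both groups. The same 3 libraries were the lowest for 10 of the 10 genes, an order that 6.03% of all tested genes showed. Because RNA came from whole tissue, fewer cells of a type and less RNA per cell cannot be told apart. The labels do not say what these 3 mice share, and no batch is given.

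Gbp2, which acts on pathogen vacuoles, measured 29.9, 83.3, 90.1 and 113.2 CPM in hpCTL and 25.7, 89.4, 30.1 and 110.9 CPM in hp708. Gbp5, a promoter of inflammasome assembly, measured 9.43, 29.4, 39.4 and 41.9 CPM in hpCTL and 9.5, 30.0, 14.3 and 40.5 CPM in hp708. In both genes the groups overlapped, and hp708 replicate 4 came close to hpCTL replicate 4, the highest library. Gbp3 measured 19.3, 43.4, 49.1 and 56.9 CPM in hpCTL and 18.2, 48.1, 22.3 and 64.5 CPM in hp708. Gbp7, which acts in defence against bacteria and protozoa, measured 10.4, 32.7, 38.8 and 43.8 CPM in hpCTL and 15.6, 35.0, 17.2 and 38.1 CPM in hp708. For Gbp3 the highest value of all 8 mice was in hp708, whereas for Gbp7 the lowest was in hpCTL.

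On chromosome 5, Gbp6 measured 7.32, 35.7, 33.8 and 49.8 CPM in hpCTL and 11.5, 30.8, 16.3 and 36 CPM in hp708. Its highest library was 6.81 times its lowest, the widest range among the 10 genes. Gbp8 measured 4.71, 16.6, 19.1 and 23.2 CPM in hpCTL and 3.99, 13.4, 5.12 and 16.7 CPM in hp708. It was the gene with the fewest counts, from 110 to 619 per library. Gbp9 measured 8.64, 22.6, 24.1 and 26.3 CPM in hpCTL and 11.5, 22.1, 14.3 and 24.1 CPM in hp708. Its range was the narrowest, 3.05 times from lowest to highest.

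Of the Irg genes, Igtp (also called Irgm3) measured 36.4, 97.5, 94.5 and 128.3 CPM in hpCTL and 24.9, 112.8, 48.6 and 129.5 CPM in hp708. Irgm1, a regulator of autophagy and of the other Irg proteins, measured 45.2, 102.5, 103.2 and 130.9 CPM in hpCTL and 35.1, 113.5, 49.8 and 131.4 CPM in hp708. Both had their lowest and their highest value in hp708. Iigp1, an effector Irg also called Irga6 (chromosome 18, 60506680 to 60525706, plus strand), measured 19.5, 63.2, 64.1 and 74.6 CPM in hpCTL and 17.4, 64.1, 30.4 and 74.1 CPM in hp708. Over the 10 genes, the lowest library was hp708 replicate 1 for 6 genes and hpCTL replicate 1 for 4 (Gbp5, Gbp6, Gbp7 and Gbp9). The highest was hpCTL replicate 4 for 7 and hp708 replicate 4 for 3 (Gbp3, Igtp and Irgm1). The ranges of the 2 groups overlapped for all 10 genes, while 1.51% of all tested genes had groups that did not overlap.

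**Figure D2:**
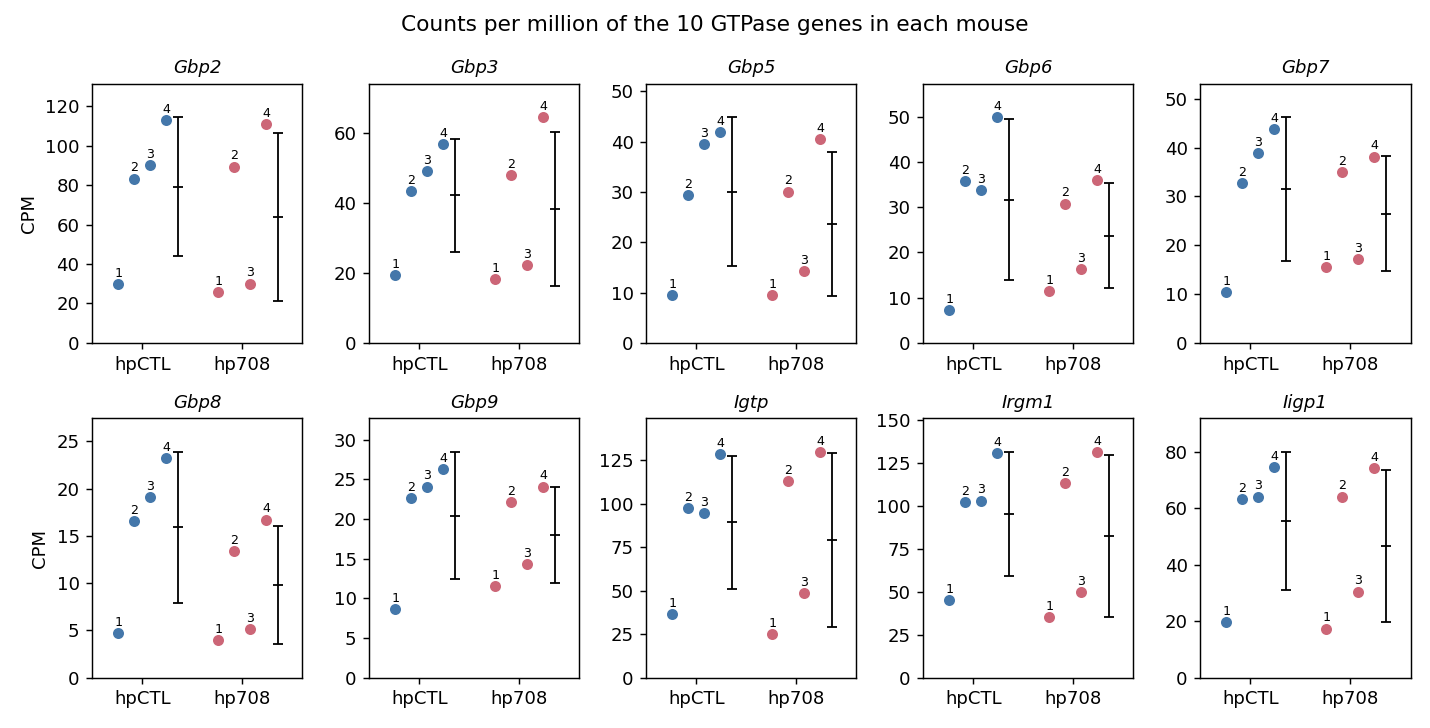
CPM of the 10 genes in each mouse. Points are mice, numbered by replicate, in hpCTL (blue) and hp708 (red), and the black bar is the mean ± SD of 4 mice. Replicate 1 of both groups and hp708 replicate 3 are the lowest 3 libraries in every panel.

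The composition of the summed level varied less between libraries than its amount. The 3 Irg genes made up between 44.6% (hp708 replicate 1) and 53% (hpCTL replicate 1) of the summed CPM, so the extremes were both among the low libraries. Gbp2 alone took 14.8% to 16.7% in 7 libraries and 12.1% in hp708 replicate 3. In that library Gbp2 was near its level in hp708 replicate 1, while Igtp was at 48.6 CPM against 24.9 CPM. Between pairs of the 10 genes, Pearson's r of log2 CPM over the 8 libraries ranged from 0.92 to 0.994 with a median of 0.968 (45 pairs). The 8 points share their libraries, and they separate into 3 low and 5 high ones. Spearman's rho was 0.786 to 0.976, with a median of 0.929.

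Scaled by the exon length of each gene, Gbp2 had the highest mean level with 27.95 ± 14.5 CPM per kb (SD, n = 8). It was followed by Igtp (18.45 ± 9.15 CPM per kb) and Irgm1 (14.0 ± 6.21 CPM per kb). Gbp3 (9.47 ± 4.23 CPM per kb) and Iigp1 (8.00 ± 3.82 CPM per kb) were intermediate. Gbp7, Gbp6, Gbp5 and Gbp8 lay between 4.84 and 2.86 CPM per kb, and Gbp9 was lowest with 1.99 ± 0.691 CPM per kb. The spread between mice was wider than most steps in this order, but within a mouse the order was mostly kept. Gbp2 exceeded Igtp in 8 of 8 libraries, Igtp exceeded Irgm1 in 7, Gbp7 exceeded Gbp6 in 7, Gbp6 exceeded Gbp5 in only 5 and Gbp8 exceeded Gbp9 in 6. With the length of the longest transcript in place of all exons, Gbp2 stayed highest and Gbp9 lowest, but Irgm1 came before Igtp, Iigp1 before Gbp3 and Gbp5 before Gbp6 and Gbp7.

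**Figure D3:**
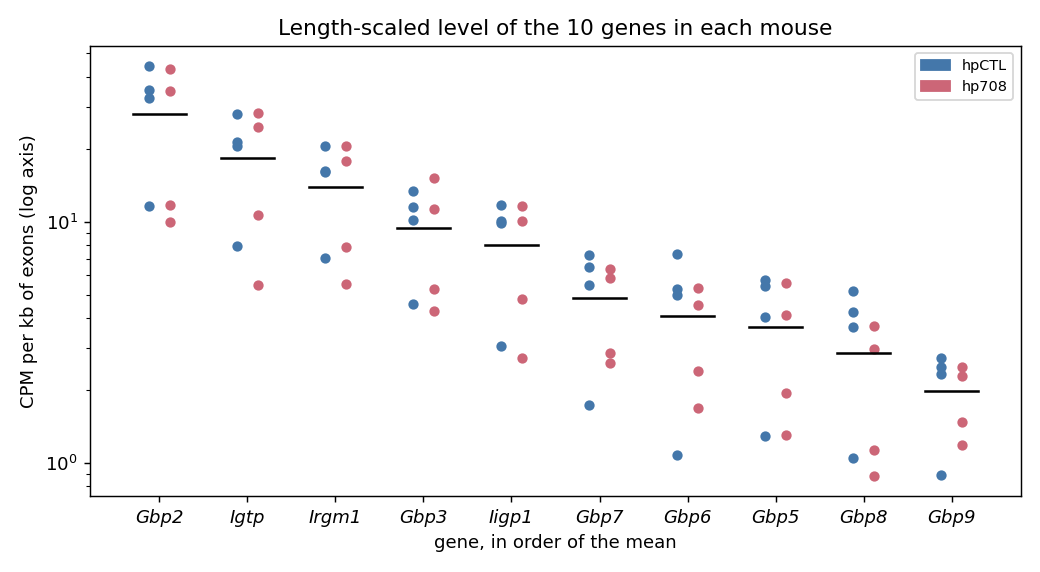
CPM per kb of exons of the 10 genes on a log axis, in the order of their mean over 8 mice (black line). Points are mice, blue for hpCTL and red for hp708, and the low and high mice of both groups are apart in each gene.

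Part of the reads of some genes cannot be assigned with certainty. Exact stretches of 50 bases in the annotated transcripts were compared with those of all other genes. For 8 of the 10 genes less than 10% of the stretches also occurred elsewhere, from 0.271% in Irgm1 to 7.45% in Igtp, most of the latter in Irgm2. In Gbp8 the share was 14.5%, with Gbp4 first among the genes that share them. In Gbp6 it was 61.6%, and 54.6% were shared with Gm43302, whose exons overlap those of Gbp6 by 1726 bases on the same strand. The values of Gbp6 are therefore less certain than those of the other genes.

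Between the groups, the fitted values of the 10 genes were lower in hp708 with all libraries, and whether genes were called depended on the test. Surrogate variables, which stand for variation from unknown sources, were included as the study did. With 3 of them edgeR's quasi-likelihood test at a false discovery rate (FDR) below 0.05 called 0 of the 10 genes and 1 of all 17252 genes (0.00580%). The FDR of the 10 genes lay between 0.268 and 0.511. At an unadjusted p-value below 0.05, 10 of 10 were lower in hp708, against 4.87% of all tested genes. As the genes were chosen with this contrast known, nothing is read from that count. With the same surrogate variables the likelihood ratio test called 8 of the 10 and 127 of all genes (0.736%), and DESeq2 called 5 of the 10 and 96 of all genes (0.556%).

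The log2 fold changes and SEs that follow are from the quasi-likelihood fit with 3 surrogate variables, unless said otherwise. Gbp8 had the one farthest from 0, -1.25 (SE 0.18), and without surrogate variables it was -0.70 (SE 0.54). The group means of Gbp8, which are not adjusted for surrogate variables, were 15.9 ± 7.96 CPM in hpCTL and 9.82 ± 6.24 CPM in hp708 (SD, n = 4 each). Gbp2 followed with -0.93 (SE 0.21), Gbp5 with -0.87 (SE 0.16), Igtp with -0.85 (SE 0.21) and Iigp1 with -0.81 (SE 0.14). Gbp6 (-0.76, SE 0.15), Irgm1 (-0.75, SE 0.17) and Gbp3 (-0.62, SE 0.18) came next. Gbp7 (-0.58, SE 0.096) and Gbp9 (-0.44, SE 0.085) were nearest to 0. The median was -0.78, and over all tested genes it was -0.0091.

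These sizes changed with the surrogate variables, the filter and the libraries used. Without surrogate variables the median of the 10 genes was -0.25, with a range from -0.70 (Gbp8) to -0.14 (Gbp3), and 0 of 10 had an unadjusted p-value below 0.05, against 1.81% of all tested genes. Their median SE was 0.49 in that fit and 0.16 with the surrogate variables. Together the 3 surrogate variables had an R2 of 0.739 with the mean level of the 10 genes over the 8 libraries. Without hp708 replicate 1 the range with 3 surrogate variables was -0.52 (Gbp8) to 0.043 (Igtp), the median -0.12, and Igtp and Gbp3 (0.034) were no longer lower in hp708. In the latter fit Gbp8 had an SE of 0.13 and an FDR of 0.162 from edgeR's quasi-likelihood test. There 2 of the 10 were lower at an unadjusted p-value below 0.05, against 6.72% of all tested genes. Without surrogate variables the median of -0.25 ranged from -0.54 without hp708 replicate 4 to -0.024 without hp708 replicate 1. It moved by over 1.5 times also when hpCTL replicate 1 (-0.53) or 4 (-0.058) was left out, and likewise for hp708 replicates 2 (-0.43) and 3 (-0.081). With 3 surrogate variables and at least 10 counts required in every library it was -0.35.

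**Figure D4:**
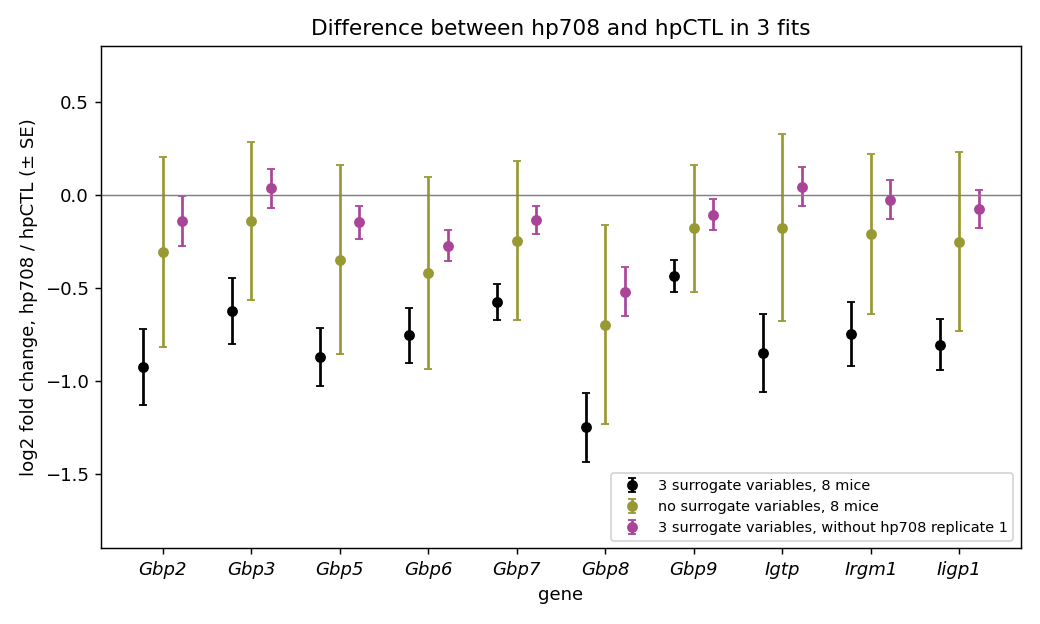
Log2 fold change of hp708 against hpCTL (± SE) of the 10 genes in 3 fits of edgeR. Black points (3 surrogate variables, 8 mice) range from -1.25 to -0.44, olive points (no surrogate variables) from -0.70 to -0.14, and purple points (3 surrogate variables, without hp708 replicate 1) from -0.52 to 0.043.

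The rest of the families had a like pattern between mice. Of 17 further Gbp, Irg and Gvin genes in the table, 15 were tested and 0 called by edgeR's quasi-likelihood test at an FDR below 0.05, while 10 were lower in hp708 at an unadjusted p-value below 0.05 (4.87% of all tested genes were). As these genes too were chosen with earlier results of these data known, nothing is read from that count. Their median log2 fold change was -0.76. Without surrogate variables it was -0.32 and 0 of the 15 had an unadjusted p-value below 0.05, against 1.81% of all tested genes. Without hp708 replicate 1, with 3 surrogate variables, it was -0.20 and 4 were lower at that threshold, against 6.72% of all tested genes. Without both, that library and surrogate variables, it was -0.11. The same 3 libraries were the lowest for 13 of the 15. Gbp10, which shares 68.9% of its 50-base stretches with other genes, mostly Gbp6, measured 2.39, 13.9, 14.0 and 19.9 CPM in hpCTL and 2.46, 10.6, 4.35 and 13.4 CPM in hp708. Irgm2, the remaining regulatory Irg, measured 20.9, 69.9, 71.2 and 93.3 CPM in hpCTL and 27.3, 73.0, 37.5 and 85.8 CPM in hp708. Irgq, a divergent Irg relative, differed from the 10 genes, with 95.5 to 117 CPM over the 8 libraries. Gbp2b did not pass the filter, with 0 to 16 counts per library.

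Of the ligands and receptors upstream of these genes few followed them. Ifng, the ligand, had only 3 to 14 counts per library, too few to rank the mice. Of the type I interferon ligands 2 genes were looked up, Ifnb1 with 1 count in 1 library and Ifna4 with 0 in all. Ifngr1 measured 24.9, 24.4, 30.3 and 32.9 CPM in hpCTL and 22, 33.4, 21.0 and 32.9 CPM in hp708, and Ifngr2 58.3 to 75.5 CPM over all mice. Jak1 (179 to 223 CPM) and Jak2 (44.9 to 53.7 CPM) had narrow ranges as well. Irf1 had the same 3 lowest libraries as the 10 genes, with 21.9, 40.8, 40.2 and 47.2 CPM in hpCTL and 18.6, 38.6, 22.5 and 42.1 CPM in hp708. Among feedback genes Socs1, an inhibitor of Jak kinases, measured 1.25, 2.19, 2.30 and 2.48 CPM in hpCTL and 0.942, 2.39, 0.725 and 1.49 CPM in hp708, whereas Ptpn2, a phosphatase that dampens this signalling, stayed between 16.3 and 18.8 CPM.

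Over 44 tested genes of interferon-gamma signalling and its other targets, edgeR's quasi-likelihood test called 0 at an FDR below 0.05, and 29 were lower and 0 higher in hp708 at an unadjusted p-value below 0.05 (4.87% of all tested genes were lower). The lists in this paragraph were chosen with earlier results of these data known, so nothing is read from their counts. The median log2 fold change of the 44 genes was -0.60. Without surrogate variables it was -0.23 and 0 of the 44 had an unadjusted p-value below 0.05 (1.81% of all tested genes had). Without hp708 replicate 1, with 3 surrogate variables, it was -0.073 and 3 were lower at that threshold, against 6.72% of all tested genes. Leaving out the surrogate variables as well gave -0.055. The same 3 libraries were lowest for 31 of the 44. With 3 surrogate variables the chemokine gene Cxcl9 had the lowest log2 fold change, -1.40 (SE 0.24), with 10.6, 36.2, 42.6 and 46.2 CPM in hpCTL and 6.74, 30.8, 8.65 and 43.8 CPM in hp708. Its value was -0.59 without surrogate variables, where Cxcl11, another chemokine gene, was lowest (-0.85). With 3 of them but without hp708 replicate 1, Cxcl9 was at -0.42 (SE 0.19) and Cxcl11 at -1.07 (SE 0.49). Cxcl11 had only 3 to 21 counts per library, so its values are uncertain. Of 25 tested genes of type I interferon signalling, edgeR's quasi-likelihood test called 0 at an FDR below 0.05, 23 were lower at an unadjusted p-value below 0.05 (4.87% of all tested genes were), and 22 had the same 3 lowest libraries. Their median was -0.54, and without surrogate variables it was -0.215, with 0 of the 25 and 1.81% of all tested genes at that threshold. Without hp708 replicate 1, with 3 surrogate variables, 4 of the 25 and 6.72% of all tested genes were lower, and the median was -0.10, or -0.076 when surrogate variables were left out too. Of 16 genes of GTPase partners, among them autophagy and inflammasome genes, 3 had the same 3 lowest libraries and 2 were lower at an unadjusted p-value below 0.05 with all libraries, against 4.87% of all tested genes. Their median log2 fold change was -0.074 with all libraries and 0.012 without hp708 replicate 1, where 0 of the 16 and 6.72% of all tested genes were lower at that threshold, both with 3 surrogate variables. With all libraries and no surrogate variables it was -0.055, with 0 of the 16 at that threshold.

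Among the other genes whose log2 CPM was most like the mean of the 10 GTPase genes were Tap1, Tgtp2, Gbp4, Cxcl10, Iigp1c, Irf7, Syk, Oasl2 and H2-Q4. Pearson's r over the 8 libraries was 0.99 to 0.996. Without hpCTL replicate 1 and hp708 replicate 1 it was 0.972 to 0.993, with hp708 replicate 3 still in as the only low library. The genes were picked for a high r, so these values are a description. Tap1, a peptide transporter for antigen presentation, measured 20.03, 49.4, 53.1 and 61.4 CPM in hpCTL and 20.3, 44.7, 25.4 and 57.4 CPM in hp708.

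Markers of immune cells often had the same low libraries as the 10 genes, and markers of neurons, astrocytes and endothelium did not. Of all tested genes 6.03% had the same 3 lowest libraries. The summed level of 15 T and NK cell markers was 23.4, 46.0, 64.4 and 43.0 CPM in hpCTL and 19.4, 48.3, 18.5 and 72.0 CPM in hp708. Of the 12 tested 11 had the same 3 lowest libraries as the GTPase genes, and Cd3e was at 1.52 to 6.94 CPM while Ncr1 had 0 counts in hp708 replicates 1 and 3. Of 10 B and plasma cell markers 5 did so, with a sum of 2962 to 7548 CPM in hpCTL and 2957 to 6048 CPM in hp708. Of 12 microglia markers 10 did so, with a narrower sum of 864 to 1188 CPM in hpCTL and 723 to 1245 CPM in hp708. Of 8 monocyte and macrophage markers 6 were tested and 4 did so. Their sum was 16.1 to 41.4 CPM in hpCTL and 15.9 to 32.5 CPM in hp708. P2ry12, a marker of resting microglia, stayed at 34.7 to 39.4 CPM. None of 9 astrocyte, 10 endothelium, 12 hippocampal neuron and 7 choroid plexus markers shared the 3 lowest libraries. The hippocampal markers Prox1 and Fibcd1 were present in every library, at 55.5 to 121 CPM and 165 to 235 CPM. Choroid plexus markers varied for themselves, from 57.0 to 2081 CPM in hpCTL and 112 to 4415 CPM in hp708. The part of immune cell number in the levels of the 10 genes was not tested.

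**Figure D5:**
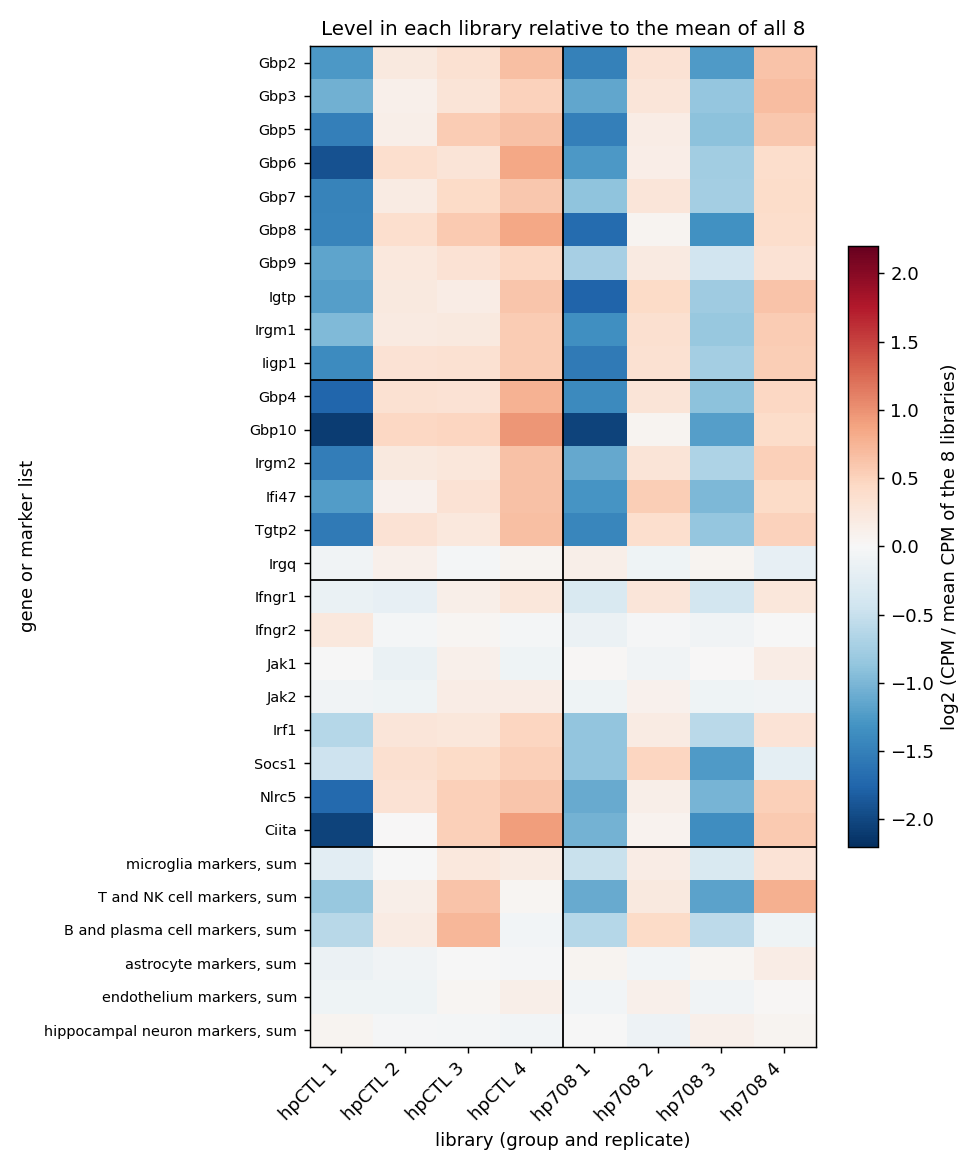
Log2 ratio of CPM in each library to the mean of the 8 libraries (colour) for the 10 GTPase genes, other Gbp and Irg genes, genes of interferon-gamma signalling and sums of marker lists, divided by black lines. The libraries hpCTL 1, hp708 1 and hp708 3 are blue for the 10 genes, Irf1 and T and NK cell markers, while Irgq, Ifngr2, Jak1 and neuron markers are near white in all 8.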

How the data were processed

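The authors mapped reads to GRCm39 with STAR 2.7.8a, counted them per gene with featureCounts 1.6.4 and deposited raw counts of 8 libraries in 1 table. Strand and multi-mapping settings are not given in the sources used here. Names, exon lengths, starts and 3'UTRs came from GENCODE on GRCm39, which named 39641 of 40659 identifiers. After filterByExpr, edgeR 4.0.16 (R 4.3.3, dispersions as in edgeR 3) was run with TMM, 3 surrogate variables (sva 3.50.0) and Benjamini-Hochberg adjustment over all 17252 genes. The study's methods name the likelihood ratio test, and a figure legend the quasi-likelihood test. Log2 CPM used a prior count of 2. DESeq2 1.42.0 was an alternative. Functions were tested on simulated data. The genes, lists and tests were chosen with earlier results of these data known. Named are the 10 genes, genes of the family and signalling lists, extremes and defining markers of other lists, and, of the 10 genes most like the members, those reported here. Results on some genes are not reported here. Tgtp2 and Irgm2 sequences were chosen after they were seen. Mice are separate animals by their labels. Replicate numbers did not pair the libraries, with correlations of deviations from -0.0411 to 0.0177.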

Additional observations from a re-analysis of the deposited data

How the results depend on the processing

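Over 8 alternatives with all libraries, the log2 fold changes of the 10 genes stayed below 0 (80 of 80 values), 14 of them passing an FDR of 0.05. The alternatives refit the same 8 libraries, and the genes were chosen with this contrast known. Nothing is therefore read from these counts. The count of all genes called, 1, became 0 without surrogate variables, 127 with the likelihood ratio test, 96 with DESeq2 and 3 surrogate variables, 2 with DESeq2 without them, 12 with no filter and 0 with at least 10 counts in every library. Members called, 0, became 8 with the likelihood ratio test (0.736% of all genes were called), 5 with DESeq2 and 3 surrogate variables (0.556%) and 1 with no filter (12 of 27076 genes). Other Gbp, Irg and Gvin genes called, 0, became 7 with either of the first 2. Interferon-gamma signalling and target genes called, 0, became 20, 13 and 2 with the same 3 settings. The median of the members moved from -0.78 to -0.35 with at least 10 counts in every library and to -0.24 with DESeq2 without surrogate variables.

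Leaving out each library with 3 surrogate variables, all genes called ranged from 0 to 56, the latter without hp708 replicate 1, and members called stayed at 0. The median of the members ranged from -1.15 (without hp708 replicate 4) to -0.12 (without hp708 replicate 1). Gbp3 ranged from -0.98 to 0.034 and Igtp from -1.23 to 0.043, both above 0 without hp708 replicate 1. Leaving out each library without surrogate variables called 0 genes each time, the median of the members ranged from -0.54 to -0.024, and 72 of 80 member values stayed below 0. Without hp708 replicate 1 Gbp3 was then 0.099, Igtp 0.127, Irgm1 0.048 and Iigp1 0.029. Gbp3 and Igtp were 0.039 and 0.053 without hpCTL replicate 4, and 0.053 and 0.0033 without hp708 replicate 3. With the replicate block in place of surrogate variables, as both together leave no residual degrees of freedom, 1 gene was called, 0 members were called and their median was -0.31.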
